A study of Rattus norvegicus with 30 samples.

Results

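Gene expression in the dorsal root ganglia (DRG) of adult rats at 4 d post nerve transection was compared with that at 1 d, to see what the ganglia still changed after the first day of the injury response. The comparison used 6 of the 30 arrays of the series, 3 arrays of DRG at 1 d and 3 of DRG at 4 d, chosen by their titles. All were from adult male Sprague-Dawley rats of 180 to 220 g, whose left sciatic nerve had lost a 1 cm stretch in the thigh, above its branching into tibial and common peroneal nerves. The 30 rats were split at random into 5 groups of 6 rats. Ganglia L4 to L6 and 0.5 cm of sciatic nerve (SN) were taken. Both groups were thus injured, and no uninjured array entered the comparison. Which rats each array held is not given in the sources used here. Whole ganglia hold neurons, satellite glia, Schwann cells, vessels and immune cells, and in such tissue more cells of a type cannot be told apart from more RNA per cell. Where nothing ties the 3 arrays of a group to separate animals, a p-value measures only the spread between these arrays.

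A sensory neuron sends 1 axon branch to the periphery and 1 to the spinal cord, and its cell body in the ganglion responds when the peripheral branch is cut. As background, this response begins within hours with injury-induced transcription factors such as Atf3 and Jun, and goes on with growth-associated genes, a switch of neuropeptides from those of sensory transmission to those of the injured state, and a change of ion channels. Macrophages of the ganglion gather around the cell bodies, present antigen through class II molecules of the major histocompatibility complex (MHC) and take up debris.

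Levels are given as normalized signals, that is the log2 intensity of a probe minus the 75th percentile of its array, so that 0 is the level of that percentile and 1 unit is 2-fold. Signals of different probes are not comparable with each other. The defining markers of sensory neurons were bright in both groups. Prph, the intermediate filament peripherin, had signals of 7.52, 7.73 and 7.67 at 1 d and 7.69, 7.97 and 7.73 at 4 d, and Uchl1, a neuronal deubiquitinase, lay between 5.82 and 6.31 on the 6 arrays, so the tissue label held. Arrays of 1 group correlated at 0.991 to 0.996 over probes and arrays of different groups at 0.977 to 0.987, with replicate 1 of 4 d nearest to the 1 d arrays (0.981 to 0.987).

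A probe was called when the Benjamini-Hochberg adjusted p of limma was under 0.05 and the change exceeded 2-fold. Of 34586 probes that every array of at least 1 of the days showed well above background, 515 were called higher at 4 d (1.49%) and 1119 lower (3.24%), and the median difference over all of them was 0.01. Counted as named genes with 1 probe each, 245 of 15516 genes were upregulated (1.58%) and 530 downregulated (3.42%), with a median of -0.02. The arrays of 1 day lay entirely beyond those of the other day for 36.5% of probes. The upward changes were the larger ones, since 11 probes rose more than 16-fold and 1 fell as far, whereas more probes fell than rose at over 4-fold (186 against 94).

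No microscope slide held DRG arrays of both days. The 3 arrays of 4 d shared 1 slide with 1 SN array of 4 d, and those of 1 d lay on 2 other slides, 1 with the SN arrays of 1 d and 1 with 2 SN arrays of 4 d. Within the ganglia, slide and day therefore cannot be told apart, and only the SN arrays of 4 d, which lay on 2 of the slides, bridge them. A fit of all 12 DRG and SN arrays of both days with the slide as a fixed block, added after the data were seen, is called the slide fit below. It rests on these few SN arrays and takes the shift of a slide as the same in both tissues. Its median standard error was 0.244 against 0.149. It called 185 probes higher and 50 lower. For the called genes named, the text says where the call was lost in the slide fit.

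Neuropeptides, the peptide transmitters of sensory neurons, held several large rises. Of 17 neuropeptide genes tested, 6 were upregulated and 1 was downregulated, beside 1.58% and 3.42% of all genes, while the median of the list was 0.16. Ucn, the stress peptide urocortin, had signals of -1.55, -1.28 and -1.38 at 1 d and 2.79, 3.08 and 3.52 at 4 d. The groups were far apart, and the rise was 4.54 (SE 0.20, n = 3 per group, 23.2-fold, limma adjusted p = 0.000554). Vip, vasoactive intestinal peptide, went from 0.89, 1.09 and 1.28 to 4.29, 4.63 and 5.08, a rise of 3.58 (SE 0.22, 11.9-fold, limma adjusted p = 0.000933). Gal, galanin, which is known to be induced in axotomized sensory neurons, was already bright at 1 d (4.33, 4.37 and 4.55) and rose further to 7.04, 7.29 and 7.66, by 2.91 (SE 0.17, 7.54-fold, limma adjusted p = 0.000933). Npy, neuropeptide Y, had signals of 2.11, 3.94 and 2.54 at 1 d, the widest spread among these genes, and of 6.22, 6.16 and 6.56 at 4 d (rise 3.45, SE 0.44, limma adjusted p = 0.00636).

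Cck, cholecystokinin, rose by 1.46 (SE 0.13) from -2.59, -2.83 and -2.78 to -1.45, -1.24 and -1.13. Nts, neurotensin, rose by 1.55 (SE 0.28, limma adjusted p = 0.0172) from -1.36, -1.45 and -0.95 to -0.31, 0.54 and 0.67. The Nts call did not hold without 1 d replicate 2, 4 d replicate 2 or 4 d replicate 3 (adjusted p of 0.0519 to 0.0717), and was absent from the slide fit (2.05, adjusted p = 0.137). The 5 other upregulated peptides were called in the slide fit too. Penk, the enkephalin precursor, was the downregulated member, from -1.48, -1.13 and -1.65 to -2.44, -3.17 and -2.17 (-1.18, SE 0.27, limma adjusted p = 0.0362). That call did not hold without any 1 of the 1 d arrays, without 4 d replicate 2, or in the slide fit (-0.87, adjusted p = 0.423). Calca, the gene of calcitonin gene-related peptide in nociceptors, had signals of 6.71 to 7.19 at 1 d and 6.73 to 7.03 at 4 d (difference -0.17, adjusted p = 0.526), and Tac1, the substance P precursor, differed by -0.33 (adjusted p = 0.138). The groups overlapped for Calca.

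**Figure D1:**
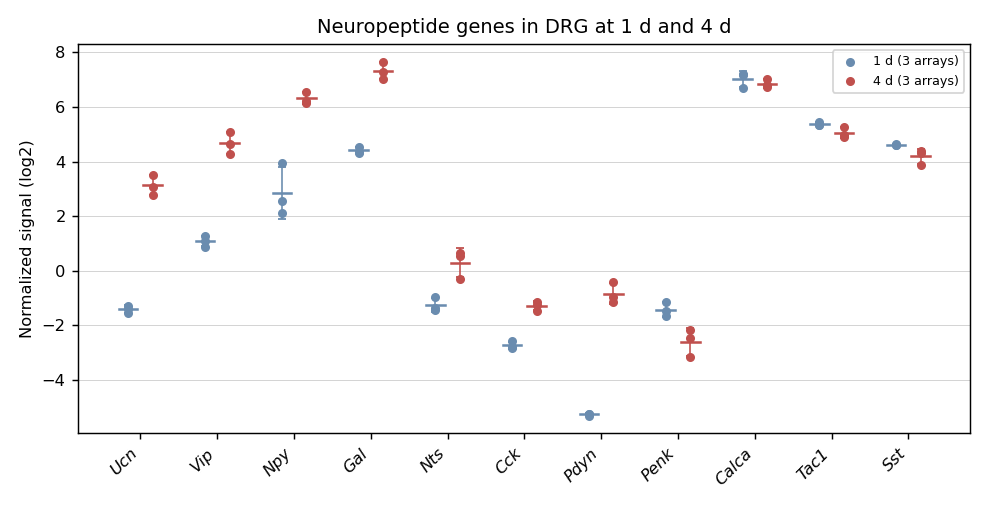
Normalized signal (log2 intensity minus the 75th percentile of the array, vertical axis) of neuropeptide genes on each of the 3 DRG arrays at 1 d (blue points) and at 4 d (red points), with the mean (horizontal bar) and SD (error bar). Gal, Vip, Npy and Ucn at 4 d sit above all 1 d arrays, while Calca lies between 6.71 and 7.19 at 1 d and between 6.73 and 7.03 at 4 d.

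Pdyn, the dynorphin precursor, was chosen through the rule for the largest rises and had signals of -5.25, -5.23 and -5.30 at 1 d and -1.15, -0.95 and -0.40 at 4 d. The rise was 4.42 (SE 0.19, 21.5-fold, limma adjusted p = 0.000554). The value of the slide fit was 5.16 (adjusted p = 0.0763), and with normexp background correction, which compresses dim probes, it was 2.99.

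The promoters of Ucn, Nts and Sprr1a, upregulated members of their lists that held a match to 1 of the motifs searched, were picked after their values were seen and are shown to let the sequence be read beside the change. The sequences are the 250 bases before the annotated start of the gene in the RefSeq annotation of the rat assembly GRCr8, written 5′ to 3′ on the strand of the gene, with matches to TGANTCA, the letters bound by AP-1 factors such as Jun, or TGACGTCA, the cyclic AMP response element bound by Creb and Atf factors, in capitals. Both strands were searched. The capitals mark matches of letters, not measured binding. Ucn lies at chr6:30957836-30958085 on the plus strand, Nts at chr7:39460889-39461138 on the minus strand and Sprr1a, a growth-associated gene described below, at chr2:180752626-180752875 on the minus strand.
Ucn: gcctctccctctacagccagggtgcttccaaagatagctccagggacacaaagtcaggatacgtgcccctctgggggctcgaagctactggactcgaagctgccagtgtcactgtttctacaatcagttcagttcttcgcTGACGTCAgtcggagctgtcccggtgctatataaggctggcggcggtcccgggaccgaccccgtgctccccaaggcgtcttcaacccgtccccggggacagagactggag
Nts: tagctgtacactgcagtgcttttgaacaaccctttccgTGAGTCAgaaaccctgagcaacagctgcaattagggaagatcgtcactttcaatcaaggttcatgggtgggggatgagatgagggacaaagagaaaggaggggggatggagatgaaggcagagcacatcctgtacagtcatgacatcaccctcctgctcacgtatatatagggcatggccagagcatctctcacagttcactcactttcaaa
Sprr1a: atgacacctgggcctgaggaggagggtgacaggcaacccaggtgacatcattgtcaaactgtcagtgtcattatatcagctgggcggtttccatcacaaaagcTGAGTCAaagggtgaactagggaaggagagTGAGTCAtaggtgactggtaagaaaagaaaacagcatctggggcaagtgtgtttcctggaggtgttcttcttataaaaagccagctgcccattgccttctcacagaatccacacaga
Ucn held TGACGTCA 110 to 103 bases before its start, Nts held TGAGTCA at 212 to 206 bases, and Sprr1a held TGAGTCA at 147 to 141 and again at 117 to 111 bases. Of 27457 promoters in the table, 1.70% held TGACGTCA and 6.36% held TGANTCA. Of 13 neuropeptide promoters matched, Cartpt and Ucn held TGACGTCA and Nts and Nmu held TGANTCA, a search of that list added after its values were seen. Of 19 promoters of growth genes, Sprr1a and Plaur held TGANTCA and 0 held TGACGTCA, and of 17 promoters of injury-induced transcription factors 3 and 0 did.

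Growth and regeneration-associated genes were upregulated in part. Of 28 tested, 5 were called higher and 0 lower (1.58% and 3.42% of all genes). At any fold, 11 passed the adjusted p in the upward direction and 3 in the downward direction (4.7% and 7.93% of all genes). The list's median was 0.32 (0.15 in the slide fit). Sprr1a, a cornified envelope protein that promotes axon growth, had signals of -2.07, -2.31 and -2.02 at 1 d and 0.80, 0.13 and 0.60 at 4 d (2.64, SE 0.19, limma adjusted p = 0.00125). Csrp3, the muscle LIM protein, rose from 1.32, 1.22 and 1.30 to 3.58, 3.65 and 4.12 (2.50, limma adjusted p = 0.00101), but was 0.81 in the slide fit (adjusted p = 0.872). Its SD at 1 d and 4 d was 2.51 and 1.41 in the SN arrays of that fit, and 0.06 and 0.30 in DRG. The part of this SN spread in the lost call was not tested. Arg1, arginase in the polyamine pathway, rose from 1.06, 0.94 and 1.35 to 2.43, 2.82 and 3.27 (1.73, slide fit 1.35 with an adjusted p of 0.252). Ecel1, an endopeptidase induced in injured neurons, rose by 1.22 (limma adjusted p = 0.00443) and by 1.91 in the slide fit, and Reg3b, a secreted lectin, rose by 1.105 (limma adjusted p = 0.00756). Reg3b fell short of 2-fold without 4 d replicate 3, and its slide fit value was 0.93 (adjusted p = 0.439). Sprr1a and Ecel1 were thus the members called in both fits.

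Several classic growth genes passed the adjusted p but not 2-fold. Gap43, the growth cone phosphoprotein, had signals of 5.64, 5.83 and 5.70 at 1 d and 6.47, 6.59 and 6.86 at 4 d (0.91, limma adjusted p = 0.0103). Cacna2d1, the channel subunit bound by gabapentin, differed by 0.94 (limma adjusted p = 0.00822). Ncam1, a neural adhesion molecule, differed by -0.98. By contrast, 0 of 23 injury-induced transcription factors were called in either direction, with a list median of -0.09. Atf3 was bright on every array, at 5.95, 6.20 and 6.14 at 1 d and 5.74, 5.86 and 6.17 at 4 d (-0.18, limma adjusted p = 0.445), and the groups overlapped. Jun had signals of 4.21 to 4.26 at 1 d and 4.51 to 5.03 at 4 d (0.55, adjusted p = 0.0563). Fosl1 (-0.80) and Myc (-0.64) were among the 5 members that passed the adjusted p downward without reaching 2-fold.

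The rule for the 15 largest rises also named genes with no list of their own. Crisp3, a cysteine-rich secretory protein printed on the array under the name Crisp1, had signals of -1.24, -1.45 and -0.89 at 1 d and 3.69, 4.18 and 4.67 at 4 d. This was the largest rise among the genes named (5.38, SE 0.27, 41.6-fold, limma adjusted p = 0.000587). Il24, a cytokine of the interleukin-10 family, rose from -2.55, -2.89 and -2.59 to 0.29, 0.56 and 1.18 (3.35, SE 0.23, limma adjusted p = 0.00115), and Serpina3n, a secreted serine protease inhibitor, rose from 2.19, 2.84 and 2.72 to 5.38, 5.46 and 5.83 (2.97, 7.86-fold). Fcrl2, an Fc receptor-like gene, rose by 2.92, Cldn4, a tight junction claudin, by 2.91 and Pde6b, a cyclic GMP phosphodiesterase subunit, by 2.75. A second probe of Cldn4 differed by 0.17, so the gene's probes did not move alike. Hpd, an enzyme of tyrosine breakdown (3.28, slide fit adjusted p = 0.0721), Abca12, a lipid transporter (2.95, slide fit adjusted p = 0.0589), and Sftpd, surfactant protein D (2.78, slide fit 1.87 with an adjusted p of 0.071), lost their calls in the slide fit. In all, 11 of the 15 largest rises were called in the slide fit, and all 15 after normexp correction. Tgm1 (2.70), Krt19 (2.64), Padi3 (2.50), Sdc1 (2.40) and Hamp (2.01), picked after their values were seen, were upregulated as well, and Hamp lost its call in the slide fit (1.77, adjusted p = 0.137). The first 4 of these, a transglutaminase, a keratin, an arginine deiminase and a syndecan, are known from epithelia, and Hamp encodes the iron hormone hepcidin.

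Macrophage markers were higher at 4 d as a group. Of 24 tested, 8 were upregulated and 0 downregulated, 17 passed the adjusted p upward and 0 downward, and in 19 all 4 d arrays lay above all 1 d arrays. Of all genes, 1.58% were upregulated and 4.7% passed the adjusted p upward, and 36.5% of probes did not overlap in either direction. The median of the list was 0.91, and its mean signal per array was 0.21 to 0.58 at 1 d and 1.17 to 1.39 at 4 d. Lyz2, lysozyme, had signals of 3.52, 3.68 and 3.74 at 1 d and 5.14, 5.05 and 5.25 at 4 d (1.499, limma adjusted p = 0.00146). Cd68, a lysosomal glycoprotein of macrophages, rose from 0.68, 0.86 and 1.08 to 2.11, 1.97 and 2.12 (1.19, limma adjusted p = 0.00461). C1qa, a chain of the first complement component, rose by 1.49 and Trem2, a receptor for lipids and debris, by 1.42. Clec10a (1.20), Fcgr2b (1.16), Ctss (1.12) and Fcgr1a (1.07), a lectin, 2 receptors for the Fc part of IgG and cathepsin S, made up the 8. Calls of Clec10a and Fcgr2b did not hold without 1 d replicate 1, 4 d replicate 2 or 4 d replicate 3, nor that of Fcgr1a without 1 d replicate 1 or 4 d replicate 3, and 5 to 9 members were called when 1 array was left out. Csf1r (0.90), Aif1 (0.85), Tyrobp (0.91) and Adgre1 (0.82) were below 2-fold, and C1qb (0.07), Spp1 (-0.01) and Cd14 (0.09) were near 0. A pair of dimmer Csf1r probes were called lower (-1.24 and -1.17), against the brighter one. A second probe of Fcgr1a differed by 0.61 and was not called. In the slide fit the median of the list was 0.55, and Trem2 alone of the 8 was called (1.21).

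MHC and antigen presentation genes were next, with 5 of 17 upregulated and 0 downregulated (1.58% and 3.42% of all genes) and a list median of 0.53. They were 3 class II chains, the invariant chain and the class II transactivator. RT1-Da had signals of 0.86, 1.06 and 1.03 at 1 d and 3.01, 2.63 and 3.08 at 4 d (1.92, SE 0.15, limma adjusted p = 0.00146), with means of 4.22 at 7 d and 4.41 at 14 d. Cd74, the class II invariant chain, rose from 1.56, 1.79 and 1.86 to 3.72, 3.004 and 3.45 (1.66, limma adjusted p = 0.00529), and stood at 4.89 and 5.04 at 7 and 14 d. RT1-Bb rose by 1.55, RT1-Db1 by 1.34 and Ciita, the class II transactivator, by 1.36, though Ciita was dim throughout (-5.52 to -3.98). A second probe of RT1-Bb differed by 0.77 and was not called. RT1-Ba, another class II chain, was below 2-fold (0.53). RT1-Da alone of the 5 was called in the slide fit, where the median of the list was 0.10. Similarities between the copies of these genes leave their probes open to shared signal, which was not tested.

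**Figure D2:**
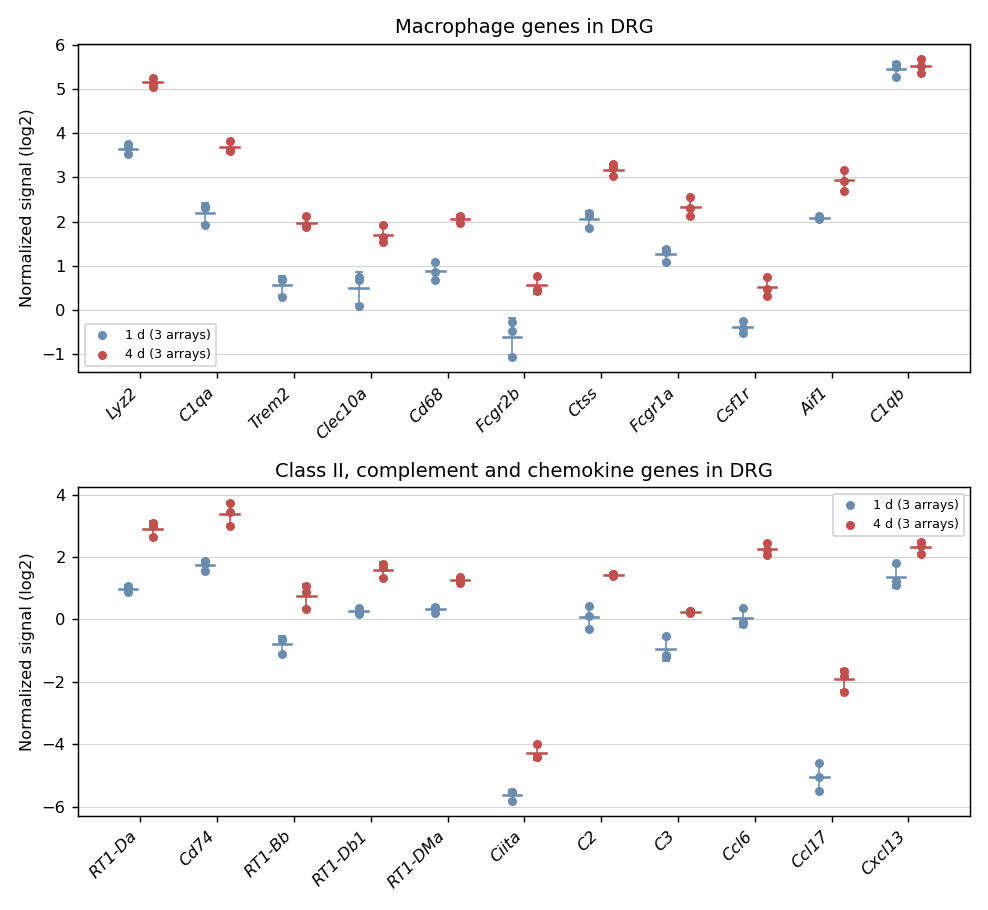
Normalized signal (log2 intensity minus the 75th percentile of the array, vertical axis) of macrophage genes (upper panel) and of MHC class II, complement and chemokine genes (lower panel) on each of the 3 DRG arrays at 1 d (blue points) and at 4 d (red points), with the mean (horizontal bar) and SD (error bar). RT1-Da is at 0.86 to 1.06 on the 1 d arrays and 2.63 to 3.08 on the 4 d arrays.

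Class II promoters carry a conserved Y box that reads CTGATTGG, and because 3 class II chains rose together, their promoters are shown with it in capitals, searched after their values were seen. CTGATTGG holds ATTGG, the reverse complement of CCAAT. RT1-Da lies at chr20:4515165-4515414 on the plus strand, RT1-Bb at chr20:4604119-4604368 and RT1-Db1 at chr20:4560163-4560412, both on the minus strand, in GRCr8 as above.
RT1-Da: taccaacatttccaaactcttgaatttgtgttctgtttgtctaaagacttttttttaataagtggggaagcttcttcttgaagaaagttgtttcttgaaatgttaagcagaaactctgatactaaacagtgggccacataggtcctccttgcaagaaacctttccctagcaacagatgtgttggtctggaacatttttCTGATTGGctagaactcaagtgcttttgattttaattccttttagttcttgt
RT1-Bb: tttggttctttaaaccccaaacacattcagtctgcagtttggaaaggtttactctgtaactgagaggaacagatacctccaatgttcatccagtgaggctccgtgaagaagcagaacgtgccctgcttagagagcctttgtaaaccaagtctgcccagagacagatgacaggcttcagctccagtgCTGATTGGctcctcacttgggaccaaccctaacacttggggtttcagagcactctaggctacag
RT1-Db1: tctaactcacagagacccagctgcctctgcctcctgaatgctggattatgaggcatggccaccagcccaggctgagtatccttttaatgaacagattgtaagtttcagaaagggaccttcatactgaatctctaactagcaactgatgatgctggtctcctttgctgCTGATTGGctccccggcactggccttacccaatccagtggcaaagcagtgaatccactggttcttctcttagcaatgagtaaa
The Y box began 52, 64 and 83 bases before the start. It was in 4 of 15 promoters of the list (RT1-Ba, RT1-Bb, RT1-Da and RT1-Db1), beside 3.26% of all promoters.

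C2 (1.36) and C3 (1.21), early components of complement, were upregulated among 15 complement and acute phase genes, with 0 downregulated. Of all genes, 1.58% were upregulated and 3.42% downregulated. Neither C2 nor C3 was called in the slide fit. Of 25 chemokine genes, 3 were called higher and 1 lower, beside the same shares of all genes. Ccl17, which attracts T cells (-5.51, -5.06 and -4.61 at 1 d and -1.82, -2.31 and -1.64 at 4 d, 3.13), and Ccl6, a macrophage chemokine (-0.15, 0.37 and -0.07 against 2.22, 2.07 and 2.46, 2.21), were among the upregulated genes, and in the slide fit Ccl17 was called and Ccl6 was not (1.96, adjusted p = 0.0837). Ccr7, the receptor that guides lymphocytes and dendritic cells to lymph nodes, was downregulated (-1.68), at a signal well above background on 2 of the 3 arrays of 4 d. Among 21 cytokine genes, Il1r2, the decoy receptor of interleukin-1, rose from -3.38, -2.83 and -3.20 to -0.93, -0.99 and -0.51 (2.32, limma adjusted p = 0.00176), and Il6 was called lower (-1.17). The Il6 call did not hold without 1 d replicate 2, 4 d replicate 1 or 4 d replicate 2, nor in the slide fit (-1.12, adjusted p = 0.245). Csf1, the macrophage growth factor that injured neurons are known to make, fell just short of 2-fold (0.99, limma adjusted p = 0.00613).

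Lymphocyte genes were on average at the dim end of the arrays. Cd4 (1.29) and Klrd1, a natural killer cell receptor, were called higher among 17 tested and 0 lower, beside 1.58% and 3.42% of all genes. At any fold, 3 passed the adjusted p upward and 2 downward (4.7% and 7.93% of all genes). The median of the list was 0.19, and 0.01 in the slide fit. The T cell gene Cd3d, much brighter than Cd4 (mean signals of 0.13 and -5.91), differed by -0.83 (limma adjusted p = 0.0101). Klrd1 was well above background on 0 arrays of 1 d and 3 of 4 d, so it was tested only through the 4 d arrays. Its rise was at least 2.62-fold in the main normalization, but 0.40 after normexp correction. The Cd4 call did not hold without 1 d replicate 2, 1 d replicate 3 or 4 d replicate 2. Neither was called in the slide fit (Cd4 1.23, Klrd1 0.86, adjusted p = 0.28 for each). The mean signal of the list per array was -4.30 to -4.14 at 1 d and -4.19 to -3.98 at 4 d, and for the pan-T-cell gene Cd3e neither day had 3 arrays well above background. Neutrophil genes (0 called of 13, median -0.27) and interferon-induced genes (0 called of 23, median 0.31, slide fit -0.30) showed no call in either direction. The core of the interferon-stimulated response element was in 10 of 17 promoters of the interferon list and 3.28% of all promoters.

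Skeletal muscle genes, which mark tissue carried over at dissection, differed between arrays of the same day. The mean signal of 8 such genes was 4.41, 4.34 and 4.28 at 1 d and 3.68, 4.06 and 2.16 at 4 d, lowest in 4 d replicate 3. None of the 8 was called (median -1.14, and -1.52 to -0.50 when 1 array was left out). Acta1, skeletal actin, had signals of 4.36, 4.00 and 4.33 at 1 d and 3.62, 3.83 and 1.62 at 4 d. The part of carried-over muscle in other results was not tested.

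Cell cycle genes lay slightly higher at 4 d, with 10 of 43 past the adjusted p upward and 1 downward (4.7% and 7.93% of all genes), a median of 0.27, and 22 of 43 with all 4 d arrays above all 1 d arrays (36.5% of probes did not overlap, in either direction). Kif2c, a mitotic kinesin, was the only member past 2-fold (1.06, limma adjusted p = 0.01), and fell out without 1 d replicate 2 or 4 d replicate 3 and in the slide fit (adjusted p = 0.0709). Top2a, topoisomerase II of dividing cells, had signals of -2.18, -2.35 and -1.98 at 1 d and -1.47, -1.55 and -1.52 at 4 d (0.66), and Cdk1, the mitotic kinase, differed by 0.59. CCAAT or its reverse complement was in 26 of 36 cell cycle promoters and in 34.3% of all promoters, TTTGAA in 11 and 16.03%, and TTTAAA in 11 and 12.2%.

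Genes that define the sensory neuron itself mostly stayed within 2-fold, with small shifts downward. In that list 5 genes passed the adjusted p downward and 0 upward (7.93% and 4.7% of all genes). The list median was -0.19, also in the slide fit. Of 21 identity and cytoskeleton genes, Mapt, the microtubule protein tau, was called lower (4.52, 4.23 and 3.80 against 3.36, 2.93 and 2.90, -1.12), a call that did not hold in 4 of 6 fits with 1 array left out, or in the slide fit (-0.72, adjusted p = 0.548). A second probe of Mapt differed by -0.03. The mean signal of the list was 2.39 to 2.55 at 1 d and 2.21 to 2.33 at 4 d. None of 35 voltage-gated channel genes passed 2-fold. Scn3a, the embryonic sodium channel known to reappear after axotomy, had signals of 0.05, 0.11 and 0.01 at 1 d and 0.61, 1.15 and 1.398 at 4 d (1.00, 1.99-fold, limma adjusted p = 0.0254), and Kcns1, a silent potassium channel subunit of large neurons, differed by -0.82.

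Of 27 sensory transduction genes, 1 was called higher and 2 lower, beside 1.58% and 3.42% of all genes. Cckbr, the cholecystokinin B receptor, rose from -2.51, -2.52 and -2.38 to -0.36, -0.43 and -0.16 (2.15, limma adjusted p = 0.000861), the same direction as its ligand Cck, with 1.53 in the slide fit (adjusted p = 0.176). Mrgprd, a receptor of nonpeptidergic nociceptors, fell from -0.35, -0.49 and -0.38 to -1.59, -1.64 and -1.73 (-1.25, limma adjusted p = 0.00181), with little spread in either group, but the slide fit gave 0.46, the other sign. Trpa1, the irritant receptor, differed by -0.89 (adjusted p = 0.0283). Of 23 neurotrophic factor and receptor genes 0 were called, and Bdnf (-0.95) and Gfra1, a GDNF receptor (0.87), were the largest of the differences in each direction.

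Glial lists held few calls, beside 1.58% of all genes upregulated and 3.42% downregulated. Of 18 satellite glia genes 0 were called, and Fabp7, the fatty acid binding protein of these cells, had signals of 3.62, 3.47 and 3.30 at 1 d and 3.09, 3.42 and 3.62 at 4 d (-0.09). Gfap differed by -0.90 (adjusted p = 0.185) and Apoe by 0.01. Of 17 myelin genes, Fa2h, which hydroxylates myelin lipids, was called lower (-1.08), and not in the slide fit (adjusted p = 0.34), and kept its call in 2 of 6 fits with 1 array left out. Among 12 markers of central nervous tissue, Opalin was called higher and Mobp lower (-1.44, slide fit 0.44), and the Mobp call was kept in 2 of 6 such fits. Opalin was well above background on 0 arrays of 1 d and 3 of 4 d, so it was tested only through the 4 d arrays. Its rise was at least 2.28-fold in the main normalization, but 0.38 after normexp correction. Other probes of Mobp differed by -0.59 and 0.33.

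The remaining lists held at most 2 called genes each, where 1.58% of all genes were upregulated and 3.42% downregulated. Mmp12, the macrophage elastase, rose by 1.04 among 25 matrix genes, and Npas2, a clock transcription factor, by 1.096 among 16 clock genes (a second probe differed by -0.64). Cidec, a lipid droplet protein, rose by 1.38 among 5 adipocyte genes. The median of the adipocyte list lay the other way (-0.67, slide fit -1.11), and 1 member passed the adjusted p downward. Sesn2, a stress-induced sestrin, fell by 1.23, Gclm, a subunit of the glutathione-forming enzyme, by 1.58 and Mt2A, a metallothionein, by 1.02. The call of Mmp12 did not hold without 1 d replicate 3 or 4 d replicate 3, nor that of Npas2 without 4 d replicate 1, of Cidec without 4 d replicate 3, or of Mt2A without 1 d replicate 2 or 4 d replicate 1. None of these 6 was called in the slide fit, where Gclm had the other sign (0.34). Cholesterol synthesis genes (24 tested, median -0.16), glucocorticoid-responsive genes, blood vessel genes and erythroid genes had 0 calls. TCACNCCAC, a sterol element, was in 0 of 17 cholesterol promoters and 0.976% of all promoters.

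**Figure D3:**
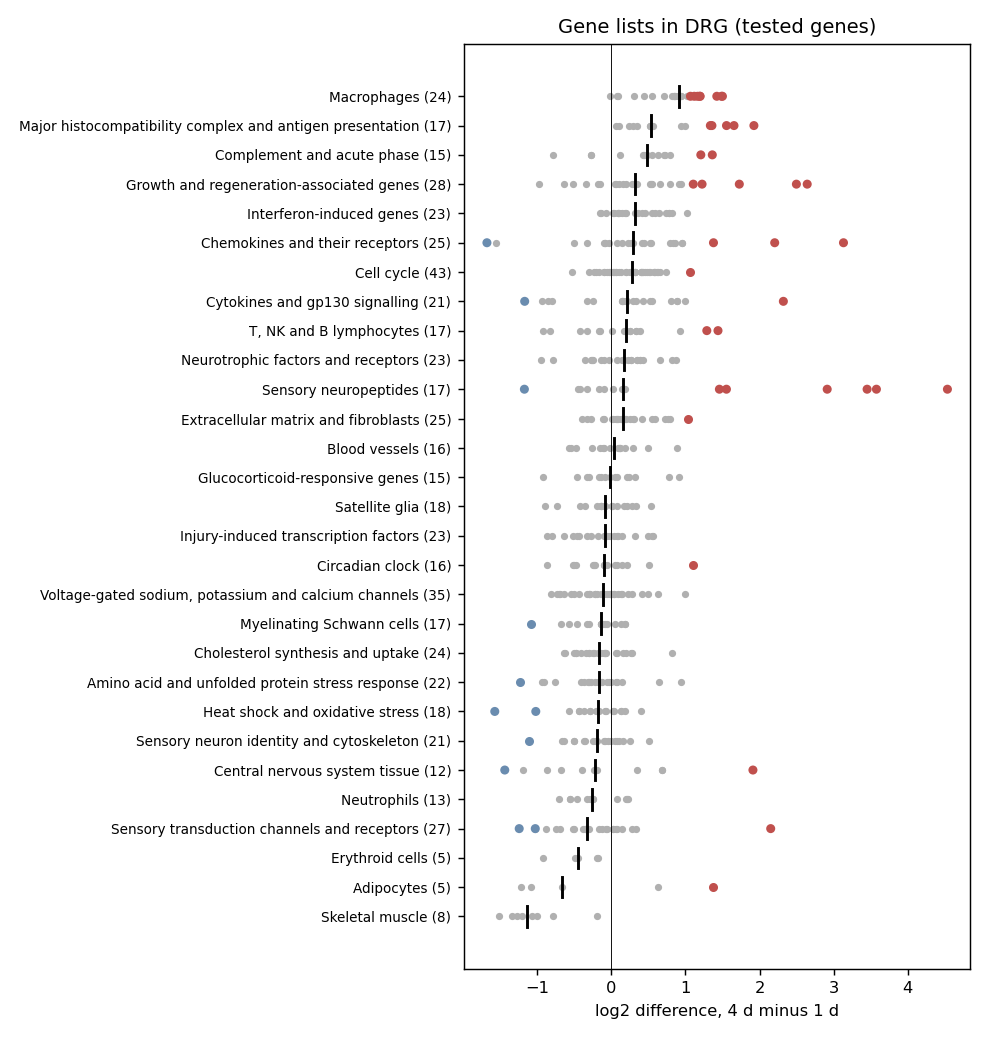
Log2 difference between 4 d and 1 d (horizontal axis) of each tested gene in the gene lists (points, red where called higher, blue where called lower and grey otherwise), with the number tested in brackets and list medians as black bars. The macrophage list has a median of 0.91 and the MHC list one of 0.53, and the neuropeptide list reaches from -1.18 to 4.54.

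Falls were of another kind than rises. By the rule for the 15 largest falls, 9 were olfactory receptor genes, 2 were vomeronasal receptor genes and 4 were others, with differences of -2.68 to -2.21 and mean signals of -5.58 to -2.95. Or5p81 (-2.68) and Or1i2 (-2.64) led them, and the others were Ano7, an anoctamin, Klf14, a Krüppel-like factor, Prkcz, an atypical protein kinase C, and Tlr9, a receptor of bacterial DNA. Klf14 fell from -3.11, -3.78 and -3.93 to -5.85, -6.23 and -5.84 (-2.37, limma adjusted p = 0.00313), and it alone of the 15 was called in the slide fit (-2.09, adjusted p = 0.00725). After normexp correction 8 of the 15 were called, and Klf14 was not (-0.96). A second probe of Prkcz differed by -0.14. Of 507 olfactory receptor probes tested, 170 were called lower and 15 higher (3.24% and 1.49% of all probes), with a median of -0.77 and of 0.03 in the slide fit.

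The share of called falls grew as signals became dimmer. It was 10.4% of 5658 probes with a mean signal under -5, 4.95% of 7766 between -5 and -3, 1.65% of 7571 between -3 and -1, 0.302% of 6296 between -1 and 1, and 0.0411% of 7295 probes of 1 or higher. The share of rises went from 2.93% to 0.535% over the same steps. Of the 1119 falls, 972 lay below -3, and their median difference was -1.44, against -0.19 in the slide fit and -0.45 after normexp correction. These 972 probes were picked by their fall in DRG, so the gap between the DRG days was set by that choice. The SN arrays did not enter the choice, and 1 of them lay on the slide of the 4 d DRG arrays. The median signal of the 972 probes was similar on arrays of the same slide. It was -4.24 in 1 d replicate 1 and -4.27 to -4.17 in the SN arrays of 1 d on the same slide, -4.80 and -4.78 in 1 d replicates 2 and 3 and -4.79 and -4.76 in the SN arrays of 4 d beside them, and -6.27, -6.15 and -5.95 in the 4 d DRG arrays and -5.98 in the SN array of 4 d on their slide. The 301 rises below -3 had a median of 1.34, against 1.31 in the slide fit and 0.52 after normexp correction. The 214 brighter rises had 1.38, 1.21 and 1.23. Of the 301 dim rises, 42 were called in the slide fit and 23 after normexp correction, and of the 972 dim falls 13 and 46.

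**Figure D4:**
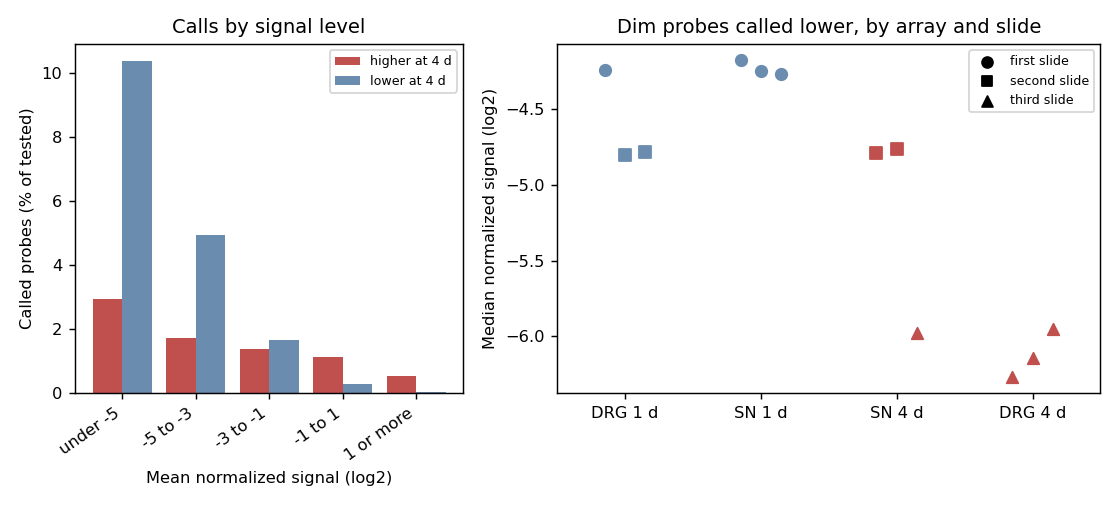
Left, share of tested probes called higher (red bars) and lower (blue bars) at 4 d, in percent, by mean normalized signal. Right, median normalized signal of the 972 dim falls on each DRG and SN array of 1 d (blue) and 4 d (red), with a marker shape for each slide. Falls make up 10.4% of probes under -5 and 0.0411% of probes of 1 or higher, and the SN array on the slide of the 4 d DRG arrays (-5.98) lies with them.

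Among brighter probes 147 fell, with a median of -1.21 and of -0.39 in the slide fit. A set of 11 genes of mean signal above -2, among those with the largest falls, was picked after their values were seen. Serpinb2, an inhibitor of plasminogen activators, fell from -0.08, -0.01 and 0.06 to -1.33, -1.68 and -1.31 (-1.43, limma adjusted p = 0.00278), and Trib1, a pseudokinase, from -1.09, -1.29 and -0.96 to -2.22, -2.38 and -2.36 (-1.20, limma adjusted p = 0.00381). These were the 2 of the 11 also called in the slide fit (-2.09 and -1.46). After normexp correction 10 of the 11 were called, and Trib1 was not (-0.93). A second probe of Trib1 differed by -0.45 and was not called. Reg3a, a secreted lectin, fell from 1.65, 1.67 and 1.77 to 0.09, 0.38 and 0.25 (-1.45, slide fit -0.49). Ckmt2 (-1.36), Neb (-1.31) and Mylk2 (-1.21), genes of striated muscle, were among the 11, moved with the muscle list above and did not keep their calls when single arrays were left out. Phyhipl, Cat, Tmem255a, Adamts8 and Mrgprd were the others, between -1.38 and -1.25, and Phyhipl kept its call in 1, Cat in 3 and Tmem255a in 4 of 6 fits with 1 array left out.

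The change from 1 d to 4 d in the ganglia was also set against that in the proximal nerve of the same days, in 1 limma fit of 12 arrays with the difference of the changes as the test. Of 34585 probes, 13.3% differed at an adjusted p under 0.05, 2274 with the higher change in DRG and 2317 with the lower. Of 17 neuropeptide genes, 9 had the higher change in DRG and 3 the lower, and so did 9 and 4 of 28 growth genes. Since the named genes were picked by their DRG difference, which enters this test, their side of it was in part set by that choice. Whether DRG and SN arrays came from the same rats is not given, and the fit took them as independent. Gal rose by 2.91 in DRG and the difference from SN was 1.94 (limma adjusted p = 0.000309). Gap43 was 0.91 in DRG and -0.47 in SN, Penk -1.18 and 2.59, and Fabp7 -0.09 and 1.91, and the change of each differed between the tissues. Macrophage genes were divided, with the higher change in DRG in 4 of 24 and the lower in 4 (list medians 0.91 and 0.69). For the class II genes RT1-Bb, RT1-Db1 and Ciita the 2 tissues' changes were near each other, with differences of -0.23 (adjusted p = 0.678), -0.26 (0.357) and -0.02 (0.957) in the limma fit. Cell cycle genes had the lower change in DRG in 23 of 43 and the higher in 0 (median 0.27 against 1.08 in SN), and lymphocyte genes the lower in 12 of 17 and the higher in 0. Cholesterol genes had the higher change in DRG in 23 of 24, with a median of -0.16 in DRG and -1.26 in SN. Interferon-induced genes differed in 0 of 23.

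**Figure D5:**
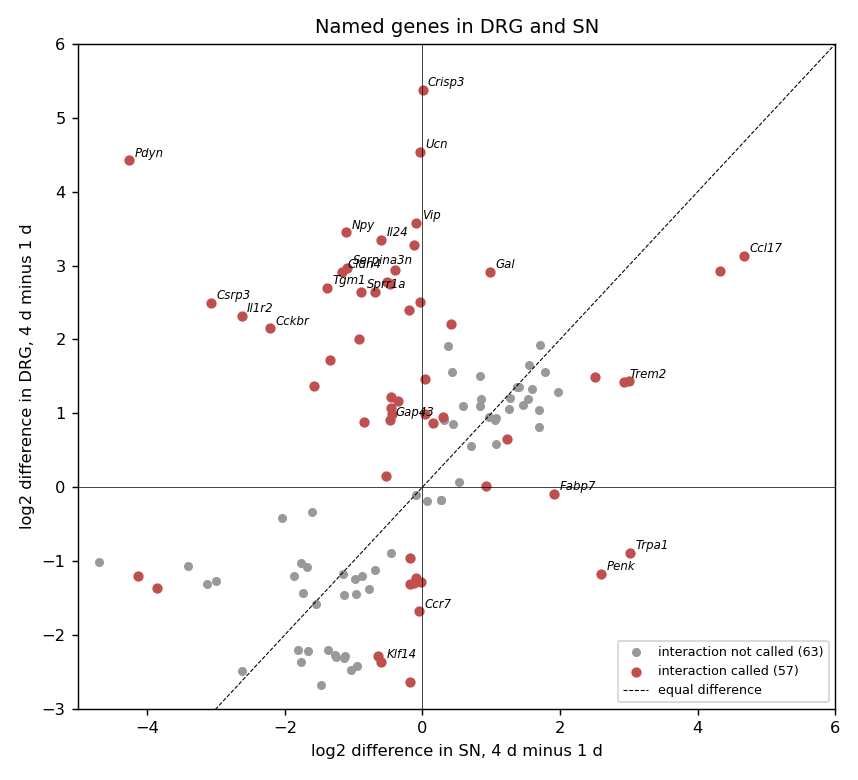
Log2 difference between 4 d and 1 d in SN (horizontal axis) and DRG (vertical axis) of 120 named genes (points), red where the change differed between the tissues, with the line of equal difference dashed. Of 57 such genes, 38 lie above the line, with the higher change in DRG, and 19 below it. Myh4, at -5.475 in SN, lies beyond the left edge and is not drawn.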

How the data were processed

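RNA of each sample was hybridised to 1 Agilent rat array in 1 colour (Cy3). The deposited files are scanner outputs of Agilent Feature Extraction 10.5.1.1, and per the file headers their intensity was background-subtracted and detrended within each array, with no scaling between arrays. The authors also deposited a table of log2 values, which matched quantile-normalized intensities and served as an alternative. Control spots were left out and spots of 1 probe averaged, leaving 41012 probes, of which 16225 were named through RefSeq accessions, 1092 through synonyms and 5673 by the name on the array. The 6 arrays had 33690 to 35527 probes well above background and no saturated spot, and the number of arrays limits the precision. Log2 intensity minus the 75th percentile of each array was fitted with limma 3.58.1 (R 4.3.3) on the 6 arrays, over probes that the 3 arrays of at least 1 of the days all showed well above background, with Benjamini-Hochberg adjustment over all of them. The slide fit and the test against SN used 12 arrays. The limma fit of the 6 arrays was tested on simulated data with independent noise and no slide effect, so that test does not bear on the slide.

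Named genes were the 15 largest rises and falls among called probes above background on all 6 arrays with groups that did not overlap and a RefSeq symbol, up to 4 called genes with the largest difference in each of 29 gene lists, and a few defining genes. A gene was represented by its brightest probe. Further members of a list that are named were chosen after their values were seen. The members and lists were chosen with earlier results of these data known. Where a group had a probe above background on 0 arrays, a fold is given as a lower bound, set by the lowest signal above background on each of its arrays. The bound holds for the main normalization only. Alternatives were other normalizations and background corrections, filters, sets of arrays in the fit, the t-test named in the study's methods, slide or replicate number as a block, and leaving out each array. A few list members and a few other genes are not reported here, but counts over lists include them.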

Additional observations from a re-analysis of the deposited data

Results flagged for a closer look

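Of the 120 genes named, 57 changed differently in DRG and SN between 1 d and 4 d by the limma interaction test (adjusted p of 7.78e-06 to 0.0463 over all probes), 38 of them with the higher change in DRG. The genes were picked in part by their DRG difference, which enters this test, so the share is not set against that of all probes. The values that follow are the DRG log2 difference of 4 d from 1 d less that of SN. The neuropeptides with a higher change in DRG were Pdyn 8.68, Ucn 4.57, Npy 4.56, Vip 3.67, Gal 1.94 and Cck 1.42. Pdyn was well above background on 3 SN arrays of 1 d and 0 of 4 d. Growth-associated, channel, receptor and filament genes were Csrp3 5.57, Sprr1a 3.53, Arg1 3.06, Ecel1 1.68, Gap43 1.39, Cacna2d1 0.64, Gfra1 0.72, Scn3a 0.96, Cckbr 4.37 and Prph 0.68. Cckbr too was above background on 0 SN arrays of 4 d. Csrp3, the muscle LIM protein, differed by 2.50 in DRG and by -3.07 in SN, where the muscle list had a median of -4.21. Other large rises were Crisp3 5.38, Tgm1 4.09, Cldn4 4.08, Serpina3n 4.06, Hpd 3.40, Abca12 3.34, Krt19 3.33, Sftpd 3.29, Pde6b 3.22, Cidec 2.94, Hamp 2.94, Sdc1 2.60 and Padi3 2.54. Among these, SN arrays well above background numbered 1 at each day for Crisp3, 0 at each day for Abca12, 2 and 0 for Pde6b and 3 and 2 for Sftpd at 1 d and 4 d, so their SN changes rest on signals near background. Cytokine, chemokine and Fc receptor genes were Il1r2 4.95, Il24 3.95, Ccl6 1.797, Il1rn 1.74, Fcgr1a 1.53, Fcgr2b 1.51 and Csf1 1.43, and the muscle genes Acta1 2.93 and Ckmt2 2.50, whose differences lay further below 0 in SN than in DRG.

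In the other direction, genes with a difference above 0 in SN and near or below 0 in DRG were Trpa1 -3.91, Penk -3.77, Fabp7 -1.996 and Apoe -0.91, with Trpa1 above background on 0 SN arrays of 1 d. Immune genes with a lower change in DRG were Ccr7 -1.63, Klrd1 -1.57, Ccl17 -1.54, Trem2 -1.50, Fcrl2 -1.41 and C1qa -1.02, of which Ccr7 was called lower in DRG and the others had the larger difference in SN. The remaining ones were Top2a -0.58, Bdnf -0.78, Cat -1.14, Sesn2 -1.14, Tmem255a -1.18, Adamts8 -1.25, Prkcz -1.64, Klf14 -1.76 and Or1i2 -2.46. With slide as a fixed block 40 of the 57 were still called, and Ccl17, Fcrl2, Or1i2, Prkcz, Ckmt2, Cat, Tmem255a, Csrp3, Bdnf, Gfra1, Scn3a, Cacna2d1, Fcgr1a, Acta1, Top2a, Il1rn and Prph were not (adjusted p of 0.0767 to 0.503). The part of muscle carried over with the tissue, whose genes had a median difference of -4.21 in SN, was not tested.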

How the results depend on the processing

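With 3 arrays per group, 515 probes rose and 1119 fell (31.5% of calls higher). Counted without probes of mean signal under -3, a bound chosen after seeing the data, 214 rose and 147 fell, and counted as genes with 1 probe each, 245 rose and 530 fell. Normexp background correction with quantile normalization gave 200 rises and 127 falls (61.2% higher, 192 and 117 shared with the main result), quantile normalization alone 692 and 970 (41.6% higher), and slide as a fixed block, added after seeing the data, 185 and 50 (78.7% higher, 88 and 17 shared). The methods' t-test gave 540 rises and 1187 falls at its unadjusted threshold and 145 and 149 after Benjamini-Hochberg adjustment. When 1 array was left out the rises numbered 347 to 830, with 830 without 4 d replicate 1 and 347 without 4 d replicate 3, and the falls 590 to 1365, with 590 without 4 d replicate 2. Probes that differed between DRG and SN numbered 4591, 1592 with slide as a fixed block and 2437 as genes with 1 probe each. They numbered 2877 to 8976 when 1 array was left out, with 8976 without 4 d DRG replicate 1, 2877 without SN 4 d replicate 2, 2899 without 4 d DRG replicate 2, 2952 without 1 d DRG replicate 3 and 2976 without SN 1 d replicate 2. Of the genes named, 7 falls took the other sign with slide as a fixed block. They were Or4c1 (0.023), Olr1523 (0.32), Or51b6 (0.21), Or6d13b (0.016), Mrgprd (0.46), Gclm (0.34) and Mobp (0.44). Of the 52 rises and 35 falls called, 22 and 4 were called in the slide fit, against 44 and 21 after normexp correction. All were called with slide as a random block, where the estimated correlation within slides was -0.22. A random block cannot tell slide from day here, since no slide held DRG arrays of both days. Those calls are therefore no test of the slide. The causes of the changes between settings were not tested. Other settings, among them the authors' log2 values (691 and 1008) and all 15 DRG arrays in the fit (530 and 966), stayed within 1.5 times the main counts.

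Replicate numbers did not pair the samples, since same-numbered arrays of 1 d and 4 d correlated at -0.19, 0.01 and -0.18 in their deviations from the group means. With the replicate block 360 probes rose and 592 fell, and 3561 differed between DRG and SN. All 6 arrays shared 1 scan day, so a scan block was not run. Of the 972 falls below -3, 335 were not well above background on at least 1 of the 6 arrays, and of the 301 rises below -3 124 were not.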
